A study of Mus musculus with 6 samples.

Results

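The SLC25 family is the group of carrier proteins that move metabolites across the inner mitochondrial membrane. Its transcripts were followed in C2C12, an immortalised line of mouse myoblasts, with and without mechanical stretch. The members were the protein-coding genes of the deposited table whose symbol begins with Slc25a, together with the uncoupling proteins Ucp2 and Ucp3 and with Mpc1 and Mpc2. Slc25a46 and Slc25a51 were left out. This gave 48 of 32815 gene rows, of which 46 belong to the SLC25 family proper and Mpc1 and Mpc2 to the separate family of pyruvate carriers.

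The 6 libraries fell into 2 groups of 3, both of wild-type C2C12 cells carrying the same batch label. The treatment of the control group is labelled only as control. The MS group was placed under cyclic stretch on a plate bent at 4 points, with the plate displaced by 4 mm, at 1 Hz and for 8 h (the deformation is given as 5333 μ, a unit that is not spelled out). C2C12 is a single established line. The labels do not tell whether each library had its own culture; p-values therefore reflect the spread among libraries, part or all of which may be technical.

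Most SLC25 carriers are small proteins of the inner membrane that exchange 1 solute for another: ATP for ADP, malate for phosphate, aspartate for glutamate. They are made in the cytosol, taken up through the Tom70 receptor, and passed by the small Tim chaperones to the Tim22 complex, which inserts them into the inner membrane. In muscle they are best known for supplying ADP and phosphate to the ATP synthase, for importing iron and amino acids, and for moving reducing power from cytosolic NADH into the matrix. In the deposited annotation, 42 of 46 members with a readable GO cell carried the term mitochondrial inner membrane. The others were Slc25a17, which is a peroxisomal carrier, Slc25a27, Slc25a53 and Slc25a2.

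Values are FPKM, that is, fragments per length of transcript and per size of library, so levels can be compared between genes. The libraries control 3 and MS 1 stood apart from their groups. Their Pearson correlations of log2(FPKM + 1) with the rest of their own group were 0.980 to 0.982 and 0.983 to 0.985, against 0.994 for the remaining pair of each group. The 12 differentiated muscle markers summed to 92.7 FPKM in control 3, to 126 in MS 1, and elsewhere to 1.96 to 4.15. The tongue and salivary gland gene Bpifb1 reached 87.8 FPKM in control 3 and 94.5 in MS 1, and stayed at or under 0.0785 elsewhere. The 16 lens markers were lowest in the same libraries, at 288 and 344 FPKM against 1010 to 1312. The kidney gene Kap was at 87.0 FPKM in control 3 and 86.9 to 96.0 in MS, against 0.155 and 0.302 in the other controls, and all 16 kidney markers summed to 4.07 to 109 FPKM in control and 107 to 121 in MS. The 8 immune markers summed to 7.15 to 8.72 FPKM in control and 28.8 to 32.4 in MS, of which Cd68 made up 3.72 to 5.12 and 24.8 to 29.7, with Adgre1 and Cd3e at 0. The 9 myoblast markers summed to 1101 to 1169 FPKM in control and 970 to 1048 in MS, most of it Vim. Of its defining genes, Des was at 46.7 to 59.8 FPKM, Myod1 at 1.42 to 2.00 in control and 0.823 to 1.20 in MS, and Pax7 at or near 0. Cdh15, Itga7, Cdh2 and Myf5 were also lower in every MS library. Chrna1 was higher, at 3.75 to 4.25 in control and 5.34 to 5.85 in MS. Messenger RNAs of the mitochondrial genome took 12.4% to 13.4% of all FPKM in control and 1.64% to 2.82% in MS. The FPKM of the carriers are relative to the same totals. The 13 tongue and salivary gland markers summed to 169 to 372 FPKM in control and 181 to 437 in MS. Of these sums Aqp5 made up 142 to 161 in control, lowest in control 3, and 170 to 183 in MS. The 7 adipocyte markers summed to 5.54 to 7.02 in control and 8.36 to 9.26 in MS (Cidea at 0). Of these sums Pparg made up 3.78 to 4.32 in control and 6.82 to 7.52 in MS. Fabp4 went the other way, at 1.76 to 2.53 in control and 1.22 to 1.73 in MS. In the same order, the 8 liver markers summed to 1.20 to 5.28 and 5.38 to 6.17, and the 6 endothelial markers to 0.743 to 1.39 and 0.954 to 1.15. The part of any of these in the results was not tested. Fewer cells of a type and less RNA per cell cannot be told apart in these libraries.

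Stretched myoblasts had more transcript of 12 carriers and less of 3. The largest differences were in Slc25a33, a pyrimidine nucleotide carrier, Slc25a10, the dicarboxylate carrier, and Slc25a37, the iron carrier mitoferrin-1. Of the 48 members, 39 had a mean of at least 1 FPKM and were tested, and 15 of these were called at an adjusted p under 0.05 (38.5%, limma, Benjamini-Hochberg over the 12028 genes tested). Over all tested genes 53.8% were called, 30.6% higher and 23.2% lower, so the carriers were not called more often than other genes. The median log2 fold change (MS minus control, of FPKM + 1) was 0.10 over the members and 0.05 over all tested genes. With libraries rescaled to equal totals of nuclear protein-coding genes, the members split into 11 higher and 5 lower, and the share of higher calls over all genes went from 56.9% to 46.8%. On the FPKM + 1 scale, Slc25a33, Slc25a10 and Slc25a37 passed the test with a change of at least 1.5-fold, 7.69% of the tested members against 14.8% of all tested genes. With a pseudocount of 0.1, which shrinks low genes less, 6 did (15.4% against 19.2%), the others being Slc25a47, Slc25a35 and Slc25a38 with log2 fold changes of 0.77, 0.60 and 0.60. The groups did not overlap for 21 members (53.8%), 16 of them higher in MS, against 62.7% of all tested genes.

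The member calls were set against the libraries that stood apart. A term for the pair control 3 and MS 1 kept all 15 calls, with 53.1% of all genes called. As the pair holds a library of each group, this term leaves the log2 fold changes unchanged and alters only their standard errors. Without both libraries, 12 members were called higher and 4 lower, 14 of the 15 among them, with 51.8% of all genes called. A term for the 3 sets of libraries (control 1 and 2; control 3 and MS 1; MS 2 and 3) takes the group difference from MS 1 and control 3. It left 9 members higher and 1 lower, with 26.3% of all genes called. The groups did not overlap for any of the 15 called members. MS 1 minus control 3 therefore had to take the sign of the group difference, and that sign is no separate check.

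**Figure D1:**
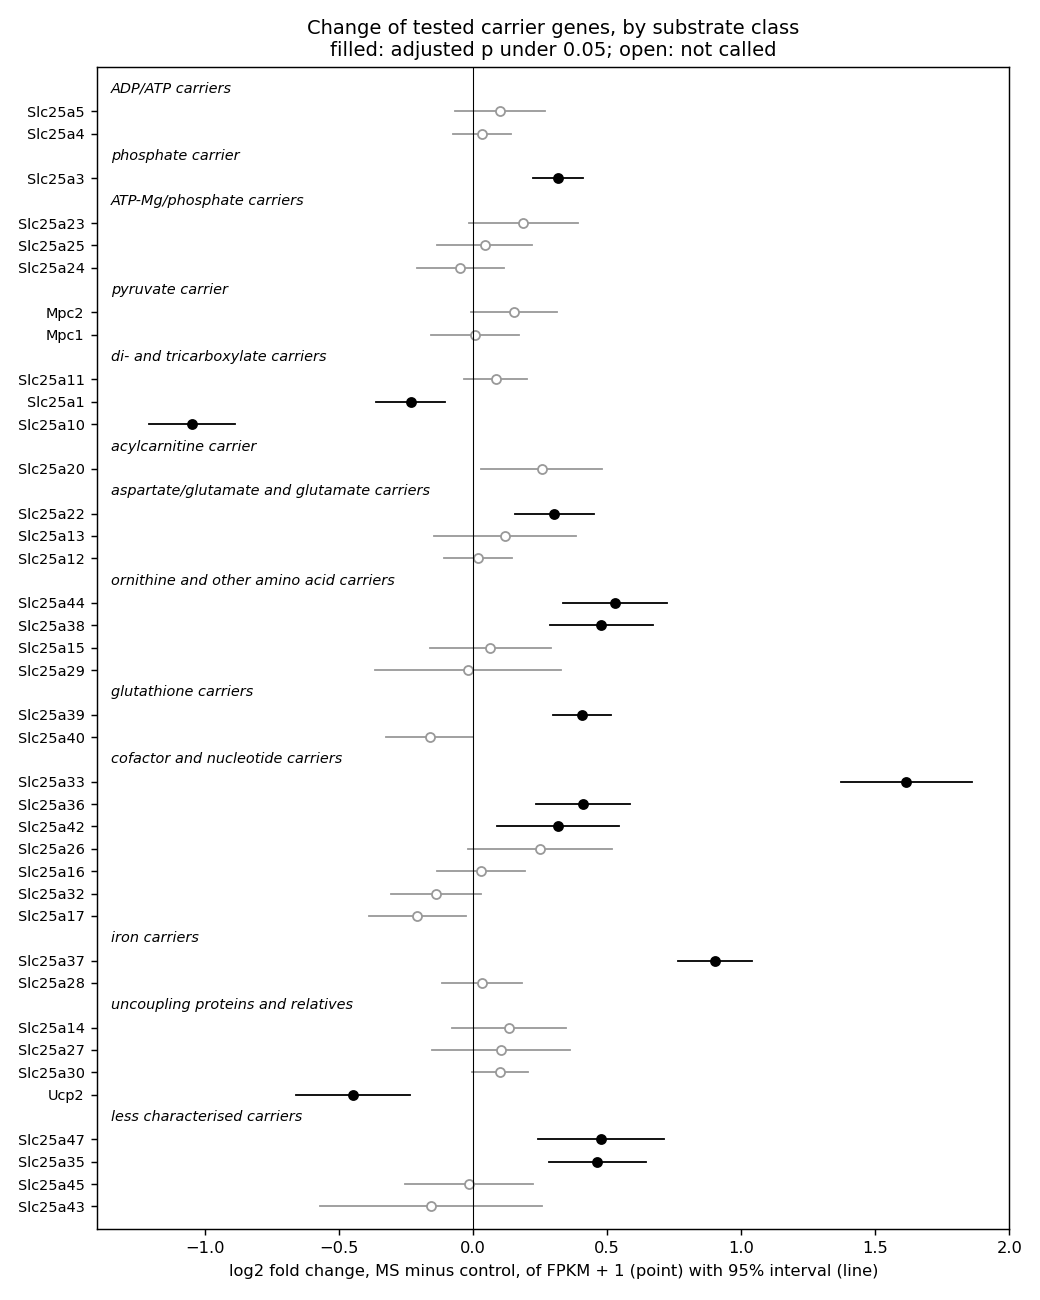
Change of tested carrier genes by substrate class, as the log2 fold change of FPKM + 1 (MS minus control, x axis) with its 95% interval (line); filled points have an adjusted p under 0.05. Slc25a33 lies at 1.62, Slc25a37 at 0.90 and Slc25a10 at -1.05, while most others lie within 0.5 of 0.

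The bases before the starts of 3 members are shown because these are Slc25a33, which rose most, its close relative Slc25a36, which carries the same substrates and rose less, and Slc25a10, which fell most. Each line holds the 250 bases before the RefSeq start on the gene's own strand, 5′ to 3′, in build GRCm38.p6; capitals mark the E-box CACGTG and the antioxidant response element core TGACNNNGC, on either strand.
Slc25a33 (chr4:149774268-149774517, minus strand): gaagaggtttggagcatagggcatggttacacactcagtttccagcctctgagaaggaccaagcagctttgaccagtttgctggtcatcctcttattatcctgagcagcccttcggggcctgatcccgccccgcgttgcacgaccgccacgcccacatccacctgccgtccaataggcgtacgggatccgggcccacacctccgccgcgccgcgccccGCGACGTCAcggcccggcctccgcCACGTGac
Slc25a36 (chr9:97111042-97111291, minus strand): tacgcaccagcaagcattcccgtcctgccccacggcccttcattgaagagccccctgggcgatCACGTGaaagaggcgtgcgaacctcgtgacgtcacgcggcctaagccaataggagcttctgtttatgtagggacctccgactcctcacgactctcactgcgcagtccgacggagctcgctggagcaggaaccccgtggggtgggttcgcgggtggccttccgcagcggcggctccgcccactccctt
Slc25a10 (chr11:120491587-120491836, plus strand): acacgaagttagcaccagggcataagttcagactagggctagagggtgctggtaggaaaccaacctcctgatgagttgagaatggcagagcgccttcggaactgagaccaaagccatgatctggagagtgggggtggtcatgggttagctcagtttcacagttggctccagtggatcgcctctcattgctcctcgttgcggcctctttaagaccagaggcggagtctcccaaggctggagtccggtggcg
Slc25a33 held an E-box at bases -8 to -3 from the start and an antioxidant response element core at -32 to -24. Slc25a36 held an E-box at -187 to -182, and the window of Slc25a10 held none of the motifs searched. The RefSeq table matched 40 members with 51 windows, 11 of the called members among them. The E-box was in 8 of 51 member windows (15.7%) and in 6.02% of 32851 windows of the same length over all genes, and the antioxidant core was in 11 (21.6%) and in 10.2%. The NRF1 core GCGCANGCG was in 2 member windows (3.92%, against 5.16%). The ATF4 composite core TGATGNAA (3.45% of all windows), the heat shock pair GAANNTTC (6.69%) and the ERR element TCAAGGTCA (0.387%) were in no member window. Both strands were searched and a match is only a run of letters. The antioxidant core was in windows of called members (Slc25a3, Slc25a33, Slc25a38, Ucp2) and of members that were not called (Mpc1, Slc25a5, Slc25a14, Slc25a23, Slc25a25). The E-box was in windows of Slc25a33 and Slc25a36, called higher, and of Slc25a1, called lower. It was also in those of Slc25a13, Slc25a14 and Slc25a15, which were not called, and of Slc25a31, which was not tested.

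The ADP/ATP carriers were the most abundant members and did not pass the test. They exchange matrix ATP for cytosolic ADP, Slc25a4 being the form of heart and muscle and Slc25a5 that of growing cells. Slc25a5 was at 276, 285 and 325 FPKM in control and 305, 334 and 310.4 in MS, and Slc25a4 at 205, 211 and 223 in control and 217, 217 and 219 in MS. The groups overlapped for both genes, with log2 fold changes of 0.10 (95% interval -0.07 to 0.27) and 0.03 (-0.07 to 0.14). Without control 3, the highest control for both, Slc25a5 passed the test (adjusted p = 0.0334), and without control 3 and MS 1 its log2 fold change was 0.20 (adjusted p = 0.0225). Slc25a31, the testis form, was at 0 in 5 of 6 libraries. The class took 47.6% to 50.6% of the summed FPKM of all members in control and 45.6% to 46.8% in MS.

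The phosphate carrier Slc25a3, which brings phosphate to the ATP synthase and also carries copper, rose in every MS library. It was at 88.9, 87.6 and 91.2 FPKM in control and 110.2, 112 and 112 in MS, with no overlap and spreads of 1.82 and 1.10 (SD, n = 3). The log2 fold change was 0.32 (SE 0.04, adjusted p = 0.000572). Its row shares 246 bases with the small nucleolar RNA row Gm24119 on the same strand, whose mean was 2.41 FPKM.

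The ATP-Mg/phosphate carriers, which adjust the matrix pool of adenine nucleotides and are opened by calcium, were not called. Slc25a24 was at 43.0, 44.2 and 49.0 FPKM in control and 46.3, 44.7 and 40.8 in MS, a log2 fold change of -0.05. Slc25a23 was at 3.43, 3.29 and 2.82 in control and 4.08, 3.38 and 3.82 in MS, a change of 0.19 (adjusted p = 0.104). Slc25a25 was at 1.39, 1.53 and 1.57 in control and 1.60, 1.54 and 1.58 in MS. The groups overlapped for all 3 genes. The row of Slc25a25 shares 966 bases with Naif1 on the other strand.

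Of the uncoupling proteins and their relatives, named for letting protons leak back into the matrix, Ucp2 alone of 4 tested genes passed the test, and it fell. Ucp2 was at 7.14, 6.59 and 6.33 FPKM in control and 5.01, 3.96 and 5.02 in MS. Every MS library lay below every control, with a log2 fold change of -0.45 (SE 0.09, adjusted p = 0.00515). With the term for the 3 library sets this was -0.29 (adjusted p = 0.216). Slc25a30, a kidney-type relative, was at 16.4, 17.0 and 15.9 FPKM in control and 17.9, 17.5 and 17.7 in MS, without overlap but also without a call (adjusted p = 0.0964). Slc25a14 and Slc25a27, forms best known from brain, had changes of 0.13 and 0.10 and were not called. Slc25a14 lay at 2.41 to 3.07 FPKM in the controls and 2.85 to 3.42 in MS. Slc25a27 lay at 1.22 to 1.73 in the controls and reached 1.84 in MS, where MS 3 was lowest, within the control range. Ucp3, the form of differentiated skeletal muscle, had its highest values in control 3 (0.207 FPKM) and MS 1 (0.128), the libraries with the muscle markers, and was at no more than 0.0357 elsewhere.

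**Figure D2:**
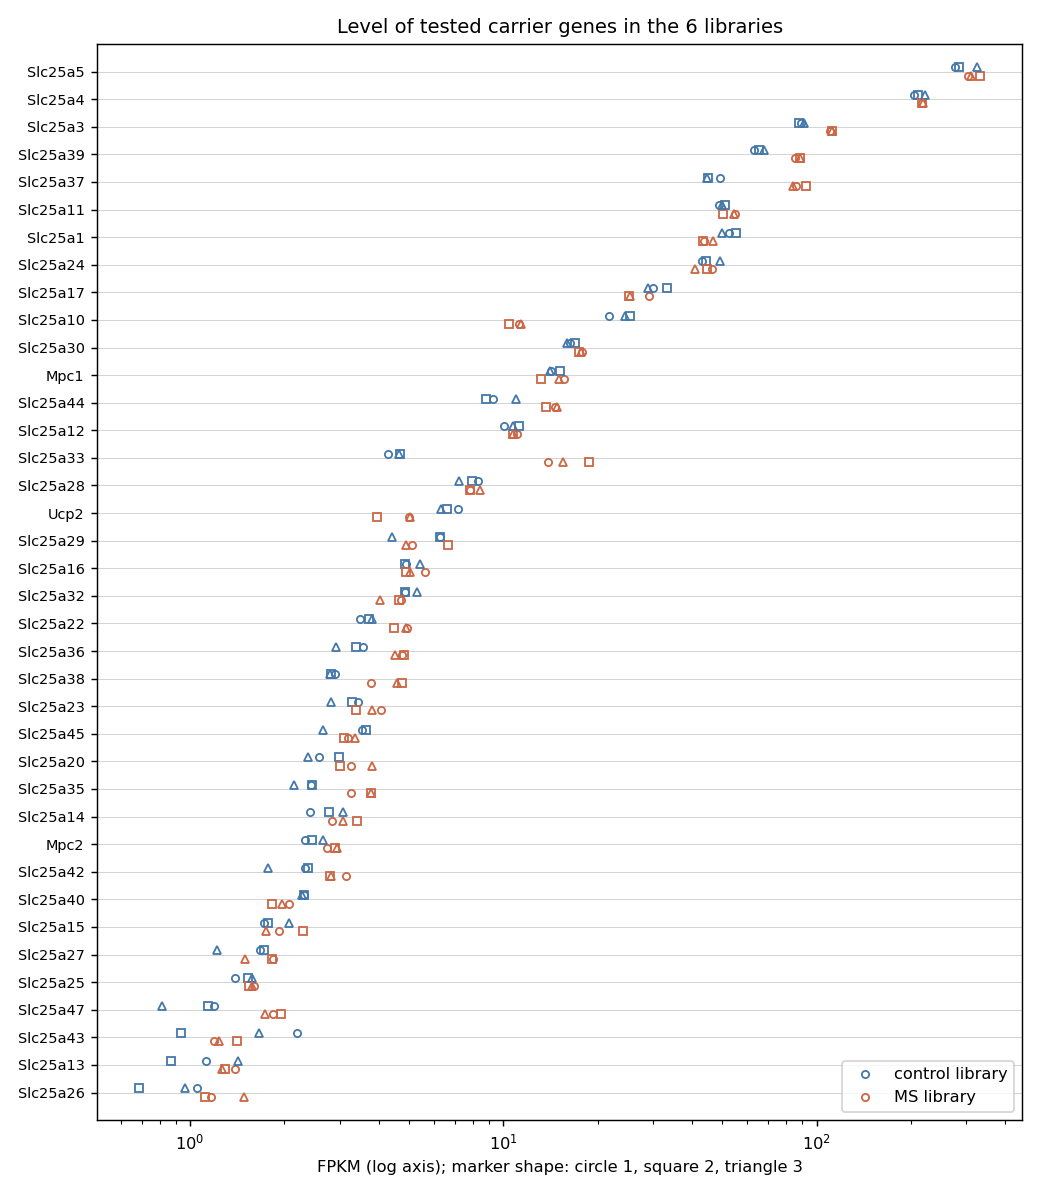
FPKM (log axis) of tested carrier genes in the 6 libraries, ordered by mean; blue marks are control and orange MS libraries, with circle, square and triangle for replicates 1, 2 and 3. Slc25a5 and Slc25a4 lie at 205 FPKM or more in every library, and the lowest tested genes lie near 1.

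Carriers at the entry of pyruvate and of acyl groups did not pass the test. Mpc1, 1 of the 2 subunits of the pyruvate carrier, was at 14.2, 15.2 and 14.1 FPKM in control and 15.6, 13.2 and 15.0 in MS. Mpc2, the other subunit, was at 2.33, 2.44 and 2.65 in control and 2.74, 2.89 and 2.95 in MS. The groups overlapped for Mpc1 (log2 fold change 0.01) and not for Mpc2 (0.15, adjusted p = 0.0973). The pseudogene Mpc1-ps had a row of its own at 62.0 to 89.6 FPKM, above Mpc1 itself, so reads of the pair may be split and the Mpc1 level is uncertain. Slc25a20, which exchanges acylcarnitine for carnitine, was at 2.58, 2.98 and 2.38 in control and 3.26, 3.01 and 3.81 in MS, without overlap (0.26, adjusted p = 0.0568). It passed the test without control 2 (adjusted p = 0.0446) and without MS 2 (0.0482).

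Of the 3 tested carriers of di- and tricarboxylates, 2 fell. Slc25a10, which exchanges malate or succinate for phosphate, was at 21.8, 25.3 and 24.4 FPKM in control and 11.2, 10.4 and 11.4 in MS. Each MS library held less than each control, with means of 23.9 ± 1.83 and 11.0 ± 0.541 (SD, n = 3) and a log2 fold change of -1.05 (SE 0.07, adjusted p = 3.76e-05). MS 1 minus control 3, libraries of the same groups, gave -1.05. Slc25a1, which exports citrate for lipid synthesis, was at 50.0 to 55.4 FPKM in control and 43.5 to 46.7 in MS, a change of -0.23 (adjusted p = 0.00983; with the term for the 3 library sets, 0.156). Slc25a11, the oxoglutarate carrier of the malate-aspartate shuttle, was at 49.0, 51.2 and 50.0 in control and 54.7, 50.2 and 54.6 in MS, an overlap, and was not called (0.09, adjusted p = 0.188). Slc25a21, the carrier of oxoadipate and related acids, was listed at 0 in every control and at no more than 0.0343 in MS. The class summed to 11.5% to 12.7% of all member FPKM in control and 8.86% to 9.80% in MS.

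Among carriers of aspartate and glutamate, Slc25a22, a glutamate carrier, rose. It was at 3.48 to 3.82 FPKM in control and 4.49 to 4.93 in MS, a log2 fold change of 0.30 (adjusted p = 0.00567; with the term for the 3 library sets, 0.104). Slc25a12 and Slc25a13 are the aspartate/glutamate carriers of the malate-aspartate shuttle. Slc25a12 was at 10.1, 11.2 and 10.7 in control and 11.0, 10.8 and 10.7 in MS, and Slc25a13 at 1.13, 0.869 and 1.42 in control and 1.39, 1.29 and 1.26 in MS. Both overlapped between the groups and neither was called. Slc25a18, the other glutamate carrier, did not exceed 0.144 FPKM.

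Carriers of other amino acids included 2 that rose. Slc25a44, which imports branched-chain amino acids, was at 9.27, 8.79 and 11.0 FPKM in control and 14.6, 13.7 and 14.9 in MS. The highest control was control 3, still below every MS library, and the log2 fold change was 0.53 (SE 0.08, adjusted p = 0.00158). Slc25a38, which carries glycine for the first step of heme synthesis, was at 2.80 to 2.91 in control and 3.79 to 4.75 in MS, a change of 0.48 (adjusted p = 0.00242). With the term for the 3 library sets it was 0.33 (adjusted p = 0.0680). Slc25a15, an ornithine carrier, and Slc25a29, a carrier of basic amino acids, had changes of 0.06 and -0.02 and were not called. Slc25a15 lay at 1.72 to 2.06 FPKM in the controls and 1.75 to 2.30 in MS. Slc25a29 lay at 4.41 to 6.27 in the controls and 4.88 to 6.68 in MS. Slc25a2, the other ornithine carrier, did not exceed 0.0734.

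Of the 2 iron carriers, which feed heme and iron-sulfur cluster synthesis, 1 rose. Slc25a37, mitoferrin-1, was at 49.3, 44.9 and 44.7 FPKM in control and 85.9, 92.5 and 83.9 in MS. Every MS library lay far above every control, with a log2 fold change of 0.90 (SE 0.06, adjusted p = 3.78e-05). MS 1 minus control 3, libraries of the same groups, gave 0.93. Slc25a28, mitoferrin-2, was at 8.29, 7.92 and 7.24 in control and 7.81, 7.82 and 8.41 in MS, an overlap (0.03, 95% interval -0.12 to 0.18). Mitoferrin-1 is best known from red cell precursors, and mitoferrin-2 from other cells. Iron carriers took 4.80% to 5.70% of all member FPKM in control and 8.03% to 8.53% in MS.

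Of the glutathione carriers, Slc25a39 rose and Slc25a40 was not called. Slc25a39 was at 63.3, 65.7 and 68.1 FPKM in control and 85.2, 88.4 and 88.6 in MS, and rose by 0.41 on the log2 scale (SE 0.05, adjusted p = 0.000358). Slc25a40 was at 2.32, 2.31 and 2.28 in control and 2.07, 1.83 and 1.96 in MS. Its groups did not overlap either, with MS the lower (-0.16, adjusted p = 0.0853). Slc25a40 was called lower when libraries were rescaled by either method.

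All 8 carriers of cofactors and nucleotides were tested, 4 were higher and none was lower. Slc25a33 carries pyrimidine nucleotides for mitochondrial DNA and RNA synthesis. It was at 4.28, 4.68 and 4.65 FPKM in control and 13.9, 18.8 and 15.5 in MS. The groups did not overlap, and MS 1 was the lowest of the MS libraries. The means were 4.54 ± 0.223 and 16.1 ± 2.53 (SD, n = 3), a log2 fold change of 1.62 (SE 0.10, adjusted p = 3.66e-05). Slc25a36, which carries the same kind of nucleotides, was at 3.58, 3.39 and 2.93 in control and 4.76, 4.84 and 4.51 in MS, a change of 0.41 (SE 0.07, adjusted p = 0.00305).

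Slc25a42, a coenzyme A carrier, was at 1.77 to 2.39 FPKM in control and 2.81 to 3.15 in MS, a change of 0.32 (adjusted p = 0.0271). It fell short of the threshold without MS 1 (0.0828), without MS 2 (0.0538), without MS 3 (0.0593) and without control 3 and MS 1 (0.18, adjusted p = 0.116).

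Slc25a17, the peroxisomal carrier of coenzyme A and related cofactors, was the most abundant of the class at 30.0, 33.4 and 29.0 FPKM in control and 29.1, 25.2 and 25.4 in MS. Control 3 and MS 1 overlapped and the gene was not called (-0.21, adjusted p = 0.0539). It was called lower without control 3 (adjusted p = 0.0367), without MS 1 (0.0222), under both rescalings (0.0182 and 0.0185), with library weights (0.0110) and with the filter at 5 FPKM (0.0471). Without control 3 and MS 1, the change was -0.32 (adjusted p = 0.00812), and with the term for the 3 library sets it was 0.01. Slc25a16, a relative of the coenzyme A carriers, Slc25a26, the carrier of S-adenosylmethionine, and Slc25a32, which carries folate or FAD, were not called, with changes of 0.03, 0.25 and -0.14. Slc25a16 lay at 4.86 to 5.41 FPKM in the controls and 4.89 to 5.62 in MS. Slc25a32 lay at 4.85 to 5.30 in the controls and 4.03 to 4.70 in MS, without overlap. Slc25a26 lay at 0.689 to 1.05 in the controls and 1.12 to 1.48 in MS, also without overlap, and passed the test with library weights (adjusted p = 0.0267). Slc25a26 shares 144 bases with Lrig1 on the other strand, whose mean was 32.1 FPKM.

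Among the less characterised carriers, Slc25a47 and Slc25a35 rose. Slc25a47, known mainly from liver, was at 0.815 to 1.19 FPKM in control and 1.73 to 1.95 in MS. Its log2 fold change was 0.48 (adjusted p = 0.00592), and its lowest value was in control 3. The sum of the liver markers, given above, was higher in control 3 and MS than in the other controls. Its largest part there was Cyp2e1, at 2.42 to 3.60 FPKM against 0.0745 and 0 in the other controls. Ahsg, Apoa1 and Apoa2 overlapped between these libraries. The part of the liver markers was not tested. Slc25a35 was at 2.15 to 2.45 in control and 3.26 to 3.79 in MS, a change of 0.46 (adjusted p = 0.00216), and its row shares 33 bases with Rangrf on the other strand. Slc25a45 had the highest mean of the class over all 6 libraries, at 3.55, 3.64 and 2.66 in control and 3.19, 3.10 and 3.37 in MS, an overlap; in each MS library Slc25a35 lay above it. Slc25a43 ranged from 0.936 to 2.19 in control and from 1.19 to 1.41 in MS and was not called. Slc25a53 was at 0.326 to 0.617, below the limit for testing, and Slc25a34, Slc25a48 and Slc25a54 did not exceed 0.198, 0.0984 and 0.0573. None of the 9 members below a mean of 1 FPKM was called when the low-value filter was dropped.

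**Figure D3:**
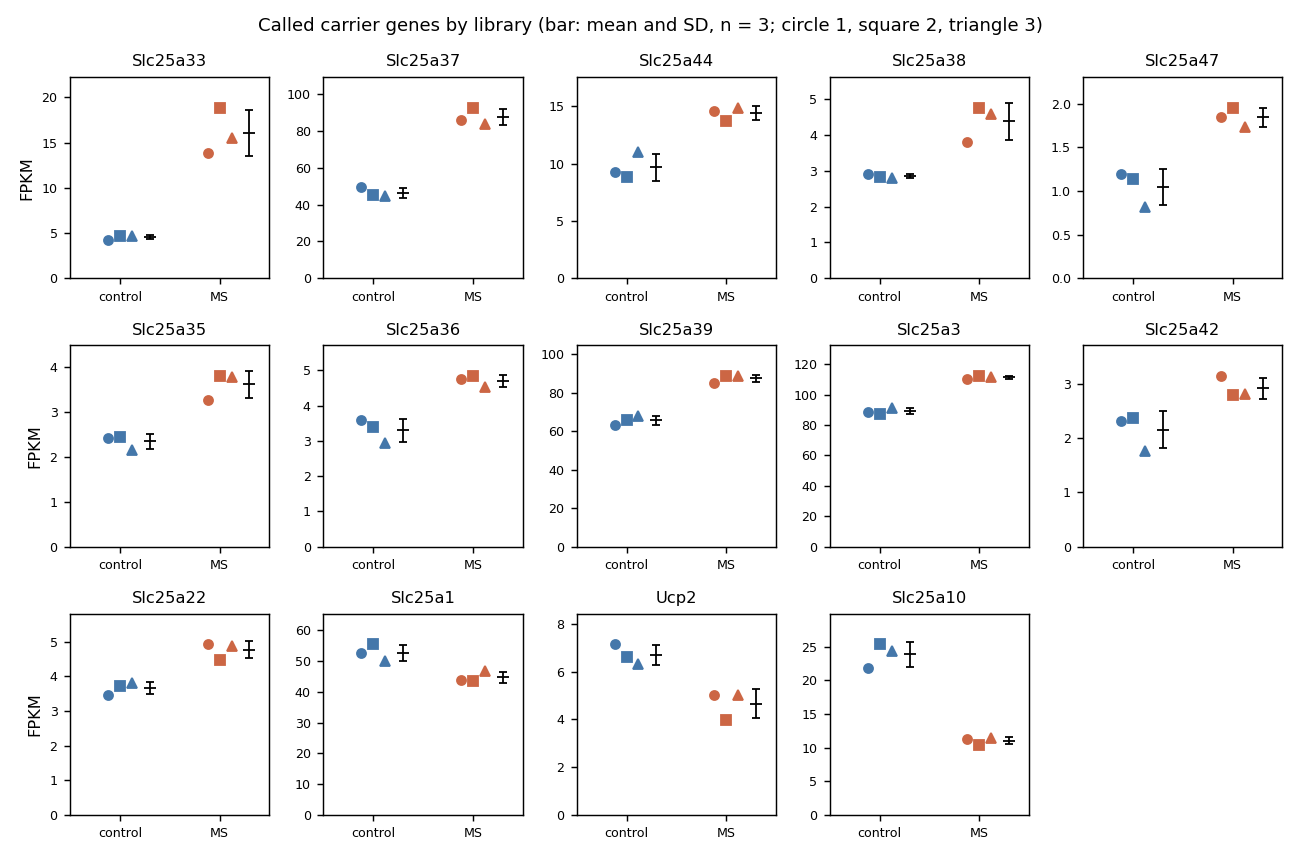
FPKM of called carrier genes in each library, with control on the left (blue) and MS on the right (orange), circle, square and triangle for replicates 1, 2 and 3, and bars for the mean and SD (n = 3). The 3 marks of one group never reach those of the other; in Slc25a33 the 3 controls lie between 4.28 and 4.68 and the MS libraries between 13.9 and 18.8.

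The balance between carriers of the same substrate was read as a log2 ratio of FPKM + 1 within each library, so that the scaling of a library largely cancels for abundant genes. For 8 pairs both members were tested, and 3 against 3 libraries cannot give an exact permutation p below 0.1. The ratio of Slc25a33 to Slc25a36 was 1.20 to 1.59 in control and 2.91 to 3.89 in MS as plain FPKM. On the log2 scale it differed by 1.21 (two-sided exact permutation p = 0.1, adjusted over the pairs 0.267). Mitoferrin-1 to mitoferrin-2, Slc25a37 to Slc25a28, went from 5.67 to 6.17 in control to 9.97 to 11.8 in MS (0.87), and Slc25a39 to Slc25a40 from 27.3 to 29.9 to between 41.2 and 48.3 (0.57), each with the same exact p and adjusted p. These were the 3 pairs whose groups did not overlap, and each reached the smallest p that the design allows.

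The other 5 pairs overlapped between the groups. Slc25a4 to Slc25a5 differed by -0.07 (exact permutation p = 0.3), Slc25a12 to Slc25a13 by -0.10 (exact p = 0.7) and Mpc1 to Mpc2 by -0.14 (exact p = 0.2). Slc25a24 to Slc25a23 differed by -0.24 and Slc25a25 to Slc25a23 by -0.14, both with an exact p of 0.2; these pairs share Slc25a23. Without control 3 and MS 1 the 3 separated ratios differed by 1.39, 0.89 and 0.64.

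**Figure D4:**
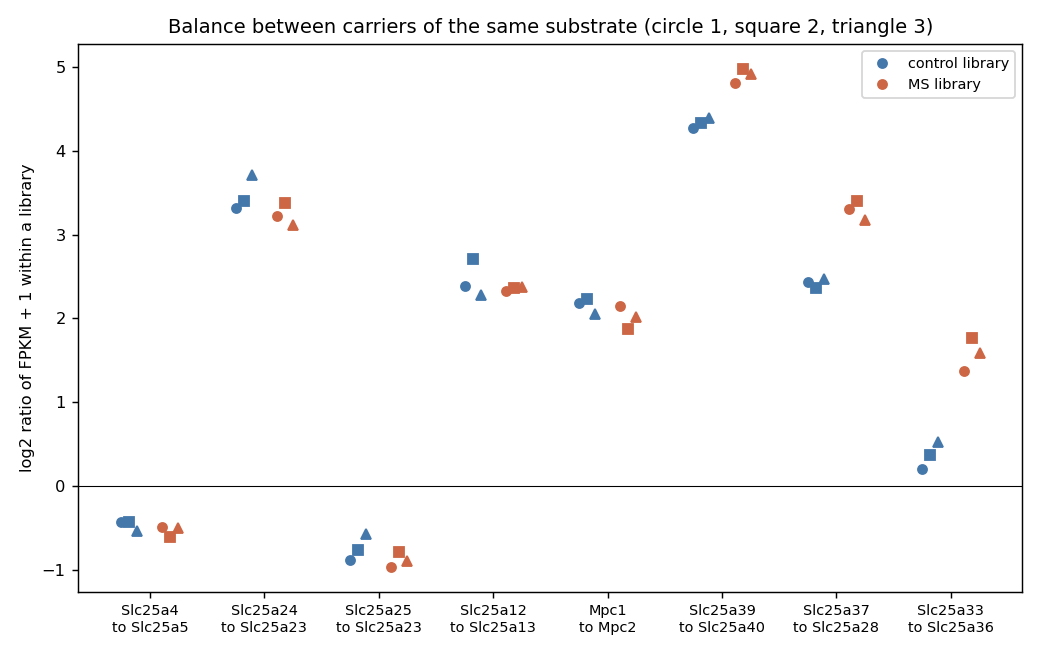
Log2 ratio of FPKM + 1 between carriers of the same substrate in each library, for 8 pairs; blue marks are control and orange MS libraries. The groups are apart for Slc25a39 to Slc25a40, Slc25a37 to Slc25a28 and Slc25a33 to Slc25a36, and overlap for the other 5.

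Summed over all 48 members, carrier transcripts came to 1009, 1037 and 1083 FPKM in control and 1144, 1176 and 1149 in MS. In these FPKM, which were not rescaled, the mean in MS was 1.11 times that in control. Rescaling to equal nuclear totals moved the median log2 fold change of the tested members from 0.10 to 0.03. Slc25a3 alone took 8.42% to 8.81% of the sum in control and 9.55% to 9.74% in MS. Glutathione carriers went from 6.50% to 6.56% of the sum in control to 7.63% to 7.88% in MS, the sum of the uncoupling proteins and relatives was 27.5 FPKM in control and 27.2 in MS, and that of the ATP-Mg/phosphate carriers 50.1 and 49.3.

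**Figure D5:**
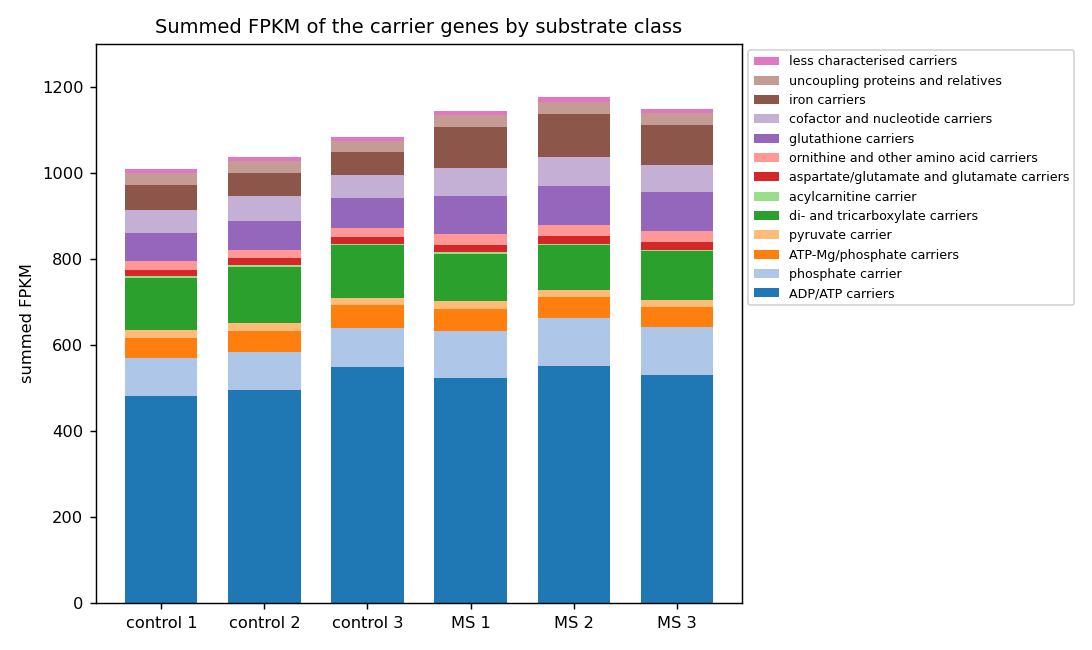
Summed FPKM of the 48 carrier genes in each library, stacked by substrate class from the ADP/ATP carriers at the bottom. The totals lie between 1009 and 1083 in control and between 1144 and 1176 in MS, and the ADP/ATP carriers are the widest band in every library.

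Some members lie next to each other. Slc25a29 and Slc25a47 are divergent on chromosome 12 with 162 bases between them (mm39, 108791799 to 108801809 and 108801972 to 108822741); Slc25a47 rose and Slc25a29 was not called. Ucp3 and Ucp2 lie 6904 bases apart on chromosome 7, Slc25a54 and Slc25a24 6461 bases apart on chromosome 3, and Slc25a43 and Slc25a5 18448 bases apart on chromosome X. In each of these 3 pairs the second gene had the higher level. Of the 39 tested members, 18 overlapped another row and 4 overlapped one with a mean of at least 1 FPKM. The sources used here do not say whether strand entered the counting.

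Of the 10 tested genes of the machinery that imports the carriers, 7 were higher and none lower, beside 30.6% and 23.2% of all tested genes. Their median log2 fold change was 0.41, against 0.05 over all genes. Timm8b was at 12.9, 13.1 and 14.2 FPKM in control and 21.6, 22.6 and 22.1 in MS (0.68, adjusted p = 7.46e-05). Timm8a1 (0.66), Timm10 (0.63) and Timm9 (0.38), further small Tim chaperones, rose as well, as did Tomm70a (0.43), the receptor. Timm29 (0.45), a Tim22 complex subunit, and Timm13 (0.16) were also called, while Timm22, the channel itself, had a change of 0.15 and was not (adjusted p = 0.0512). Rescaled by either method, or without control 3 and MS 1, 6 were higher and none lower, Timm13 losing its call. With the term for the 3 library sets, at which 26.3% of all genes were called, 3 were higher, Timm8b, Timm10 and Timm29.

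Enzymes that use the carried solutes were called in both directions, and each list's count stands beside 30.6% of all tested genes called higher and 23.2% called lower. Of 10 tested enzymes of mitochondrial proline, ornithine and glycine metabolism, 8 were higher and 1 lower (median 0.47). Pycr1, the last step of proline synthesis, rose by 1.43 on the log2 scale, Mthfd2 of the folate pathway by 1.27 and Aldh18a1, the first step of proline synthesis, by 0.92. Oat, the ornithine aminotransferase, fell by 0.62. Of 13 iron-sulfur and heme enzymes, 5 were higher and 1 lower (median 0.05). Cpox, of heme synthesis, rose by 0.90 and the iron-sulfur scaffold Iscu by 0.29. Alas1, the heme enzyme that uses glycine and is counted in the list of proline, ornithine and glycine metabolism, rose by 0.44. With the term for the 3 library sets, 5 of the first list were higher and 1 lower, and 3 of the second were higher and 1 lower; the genes named from both lists held their calls.

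Around the malate-aspartate and glycerol phosphate shuttles, 2 of 6 tested enzymes were higher and 1 lower (median 0.06). Got1, the cytosolic aspartate aminotransferase, was at 25.5, 26.2 and 31.8 FPKM in control and 57.8, 67.0 and 57.0 in MS (1.10, adjusted p = 0.000139), while its mitochondrial partner Got2 was not called (0.01). Mdh2 rose by 0.20 and Gpd1l fell by 0.25. Of 14 genes of pyruvate entry, 4 were higher and 5 lower (median close to 0). The dehydrogenase subunit Pdhb rose by 0.68, whereas the kinases Pdk1 and Pdk4, which switch the dehydrogenase off, fell by 1.09 and 0.67 and lactate dehydrogenase Ldha by 0.45. Of 10 genes of citrate and glutamine use, 3 were higher and 2 lower (median -0.02), the latter being the isocitrate dehydrogenases Idh1 and Idh2, which fell by 1.01 and 0.73; with equal nuclear totals 1 was higher and 5 lower. Of 5 carnitine shuttle genes, Cpt1c rose by 0.29 and Cpt1a fell by 0.19 (median 0.03). Of the 3 outer membrane channels, Vdac3 (0.53) and Vdac2 (0.23) rose and Vdac1 was not called (0.05). With the term for the 3 library sets, the calls of Mdh2, Gpd1l, Pdk4, Cpt1a and Vdac2 were lost, and with equal nuclear totals that of Vdac2.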

How the data were processed

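Per the file headers, the authors deposited FPKM values, 1 per gene and library, for 3 control and 3 MS libraries. Tools listed, without roles, per the submitters' processing notes are HISAT2 2.2.1, StringTie 2.1.6, cutadapt 1.9, edgeR and DESeq2, on build mm39. Since no counts were used, sequencing depth is unknown, no count model was fitted and no counting intervals are given. Gene IDs took symbols from a GENCODE M21 name table (31077 of 32815 rows), and coordinates of genes are those of the deposited table.

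The 12028 genes whose mean reached 1 FPKM were fitted as log2(FPKM + 1) with limma 3.58.1 in R 4.3.3 (group term, two-sided, eBayes with its trend option). P-values were adjusted by Benjamini-Hochberg over all tested genes, with a threshold of 0.05, and each adjusted p printed for a gene is limma's, from this fit or the alternative named beside it. This scale understates the change of low genes. Ratios within carrier pairs were compared by a two-sided exact permutation test. The fit was tested on simulated data.

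The members, their substrate classes, the gene lists, the marker lists and the library that stands apart in each group were chosen with earlier results of these data known. Library values are given for members called with an absolute log2 fold change of at least 0.5, for the most abundant tested gene of each class and for both genes of each pair. Those of Ucp2 are given as well, chosen after its values were seen. Other members are given by their range or highest value. Alternatives changed the pseudocount, filter, scaling, moderation, library weights, libraries used, and terms for library pairs, sets or replicate numbers. The term for the 3 library sets was added after seeing the data. Promoter windows came from RefSeq (GRCm38.p6) and were matched by symbol only. No protein sequences were used. A called carrier and a partner gene are included in the counts and sums but are not reported here by name, in the text or the plots.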

Additional observations from a re-analysis of the deposited data

How the results depend on the processing

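Across 17 alternatives, 9 of the 15 called carriers kept their call in every one. Of 642 values of single carriers under an alternative, 571 kept direction and side of the threshold, 15 lost the call, 16 gained one and 40 changed sign. The changed filters, eBayes without its trend, and the terms for the pair and for replicate numbers leave each log2 fold change as it was. No sign could change there. A filter at a mean of 5 FPKM left 19 members to test and 9 called, 5 higher and 4 lower. Rescaling by the median ratio gave 12 higher and 5 lower, and rescaling to equal nuclear totals 11 and 5, with the median of all genes at 0.003 and -0.01 in place of 0.05. The term for the 3 library sets left 1 lower, Slc25a10, and lost 5 calls, among them Slc25a38, Slc25a22, Slc25a1 and Ucp2; its group difference rests on MS 1 and control 3. Slc25a42 also lost its call at the nuclear scaling (adjusted p = 0.0522) and without the low-value filter (0.0871). Leaving out 1 library in turn gave 13 to 17 called, 10 to 13 of them higher and 3 or 4 lower.

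Sign changes fell on carriers that were not called in the reported fit, among them Slc25a17 (-0.21 there) and Slc25a43 (-0.16), and the cause was not tested. With the term for the 3 library sets, the log2 fold change was -0.081 for Slc25a14, -0.019 for Slc25a13, -0.090 for Slc25a5, -0.070 for Slc25a15, -0.037 for Slc25a4, 0.20 for Slc25a45, 0.17 for Slc25a29 and 0.0058 for Slc25a17. By median ratio and by nuclear totals it was -0.021 and -0.038 for Slc25a4, -0.016 and -0.031 for Slc25a28, -0.016 and -0.030 for Slc25a16, -0.030 and -0.046 for Slc25a12, -0.043 and -0.058 for Mpc1. Library weights gave -0.0070 for Slc25a12 and -0.0046 for Mpc1. Without control 3 and MS 1 it was -0.021 for Slc25a27 and -0.055 for Mpc1. Leaving out 1 library in turn gave -0.0088 to 0.12 for Slc25a15, -0.015 to 0.072 for Slc25a28, -0.020 to 0.072 for Slc25a16, -0.018 to 0.054 for Slc25a12, -0.038 to 0.075 for Mpc1, -0.12 to 0.048 for Slc25a45, -0.16 to 0.055 for Slc25a29, -0.086 to 0.0077 for Slc25a24, -0.35 to 0.0060 for Slc25a43 and -0.19 to 0.027 for the log2 ratio of Slc25a12 to Slc25a13, positive only without control 2.

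Whether replicate numbers pair the libraries is not known. The correlations of same-numbered deviations were -0.33, 0.25 and -0.37, and that of control 3 with MS 1 was 0.46. Control 3 and MS 1 stood apart in their groups under different numbers, so these values cannot decide whether libraries were paired by number. With the replicate block, 12 carriers were higher and 3 lower, the same 15 genes. Depth, unknown here, limits what can be said of the 9 members under 1 FPKM.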

Other observations

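Relatives outside the members had values of their own. Mtch1, an outer membrane relative of the carriers that inserts proteins, was at 53.7, 53.0 and 40.3 FPKM in control and 34.8, 30.8 and 34.8 in MS. Its control 3 value lay between those of the other controls and the MS libraries. Mtch2, the paralogue that acts as an insertase for the outer membrane, was at 12.6, 12.5 and 13.8 in control and 15.8, 15.8 and 15.3 in MS, so that it stood higher in each MS library while Mtch1 stood lower. Ucp1, the uncoupling protein of brown fat, did not exceed 0.0673 FPKM in any library. The pseudogene Slc25a5-ps did not exceed 0.0800 FPKM, against 276 or more for Slc25a5.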
